A study of Mus musculus with 24 samples.

Results

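The genes described here encode the receptors for glutamate, the main excitatory transmitter of the brain, and the proteins that travel with AMPA receptors. They were picked by gene name, with earlier results of these data known, and are 35 of the 47593 genes in the count table. They comprise 4 AMPA, 5 kainate, 7 NMDA and 1 delta receptor subunits, 7 metabotropic receptors, 6 transmembrane AMPA receptor regulatory proteins (TARPs), 2 cornichons and 3 Shisa proteins. Their RNA was measured by poly(A) RNA sequencing of hippocampus from male C57BL/6J mice aged 8 to 12 weeks, in 24 libraries. Wild-type (WT) mice were studied beside mice labelled Tob-KO, a line that carries a constitutive knockout of the antiproliferative gene Tob. Mice were taken either naive or 15 min, 1 h or 3 h after fear conditioning, in which a tone ended together with a foot shock. Each of the 8 groups had 3 libraries that the labels call biological replicates. The naive groups were not conditioned, so handling, context, tone and shock cannot be told apart in what follows. Total counts per library lay between 28847989 and 41595972.

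Tob1, the targeted gene, went against the label. Its level was 33.9 to 44.5 CPM (counts per 1000000 counts of the library, scaled by the trimmed mean of M values) in the 12 WT libraries and 52.1 to 68.3 CPM in the 12 libraries labelled Tob-KO, a log2 difference of 0.56 (SE 0.04, edgeR quasi-likelihood adjusted p = 1.17e-09). The genotype is therefore given below as the label. Markers of the hippocampal fields were counted in every library, with summed levels of 407 to 615 CPM for 6 dentate granule cell genes, 458 to 570 CPM for 6 CA1 genes and 75.2 to 121 CPM for 4 CA3 genes. The summed level of 10 choroid plexus genes varied from 24.7 to 4908 CPM between libraries, unevenly over the groups. Its median was 374 CPM in WT and 2133 CPM under the Tob-KO label, and 1519, 51.6, 2223 and 1074 CPM from naive to 3 h. As a covariate in the 24-library fits, a score made from these genes left each count of called members as it was, except at 15 min over both genotypes. There 3 members passed in place of 2 (Grm3, Grm7, Shisa7). The exact tests at single times were run without this score.

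AMPA receptors carry most of the fast current at excitatory synapses, and their subunit makeup and their TARP, cornichon and Shisa partners set how quickly they open, desensitise and reach the synapse. NMDA receptors pass calcium when the membrane is already depolarised, and kainate receptors act on both sides of the synapse. Metabotropic receptors signal through G proteins, those of group I mostly after the synapse and those of groups II and III mostly on terminals and glia. In the hippocampus, insertion and removal of AMPA receptors accompany long-lasting changes of synaptic strength.

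Of the 35 genes, 23 had an entry in the RefSeq promoter table (GRCm38.p6), including Shisa7 and Grm3, the members that changed after conditioning. The 250 bases before their RefSeq start sites are shown because members that moved in opposite directions can be set side by side there. Both genes lie on the minus strand, so each window reads toward lower coordinates: chr7:4844697-4844946 for Shisa7 and chr5:9725353-9725602 for Grm3. Capitals mark the GC box GGGCGG or its complement.
Shisa7: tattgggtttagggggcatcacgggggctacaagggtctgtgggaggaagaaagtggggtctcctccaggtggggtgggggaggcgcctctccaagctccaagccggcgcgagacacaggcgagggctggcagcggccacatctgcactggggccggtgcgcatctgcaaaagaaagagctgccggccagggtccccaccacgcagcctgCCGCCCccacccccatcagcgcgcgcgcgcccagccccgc
Grm3: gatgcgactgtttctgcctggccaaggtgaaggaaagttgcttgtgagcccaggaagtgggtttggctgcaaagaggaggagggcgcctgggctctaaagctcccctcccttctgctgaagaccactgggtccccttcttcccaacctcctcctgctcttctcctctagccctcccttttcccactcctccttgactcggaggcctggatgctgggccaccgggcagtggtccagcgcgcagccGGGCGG
The Grm3 start used by RefSeq lies 182 bases upstream of the start in the GENCODE annotation, and for Shisa7 the starts coincide. Each window held 1 GC box, a sequence that 33.0% of the 32536 distinct promoter windows of this length held on either strand. The Shisa7 window held 3 matches to the E-box CANNTG (66.2% of windows hold at least 1) and the Grm3 window 0. Neither window held the cAMP response element core TGACG (17.9% of windows), the AP-1 motif TGANTCA (6.73%), the Egr motif GCGTGGGCG (0.541%) or the glucocorticoid receptor motif ACANNNTGT (5.82%). The GC content was 69.6% for Shisa7 and 62.4% for Grm3, values that 9.9% and 22.7% of windows reached or passed.

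Levels were first ranked between genes as CPM per kb of annotated exon. The cornichon Cnih2, which helps AMPA receptors leave the endoplasmic reticulum and slows their closing, stood highest at 229 ± 20.7 CPM per kb (SD, n = 24), followed by the AMPA subunit Gria1 at 181 ± 19.2 CPM per kb. Their ranges over libraries, 197 to 275 and 144 to 216 CPM per kb, overlapped. By this length Gria1 stood apart from Gria2, which came next at 59.1 ± 4.87 CPM per kb. The Gria2 subunit makes the channel impermeable to calcium once its RNA is edited. Gria2, the obligatory NMDA subunit Grin1 (57.6 CPM per kb), the TARPs Cacng8 (54.3) and Cacng7 (50.9) and the kainate subunit Grik5 (47.8) each overlapped the next gene in that order. After Grik5 came a gap, and then the NMDA subunit Grin2b at 36.6 CPM per kb. Of the 34 neighbouring pairs in the ranking, 29 overlapped between libraries and 5 did not.

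**Figure D1:**
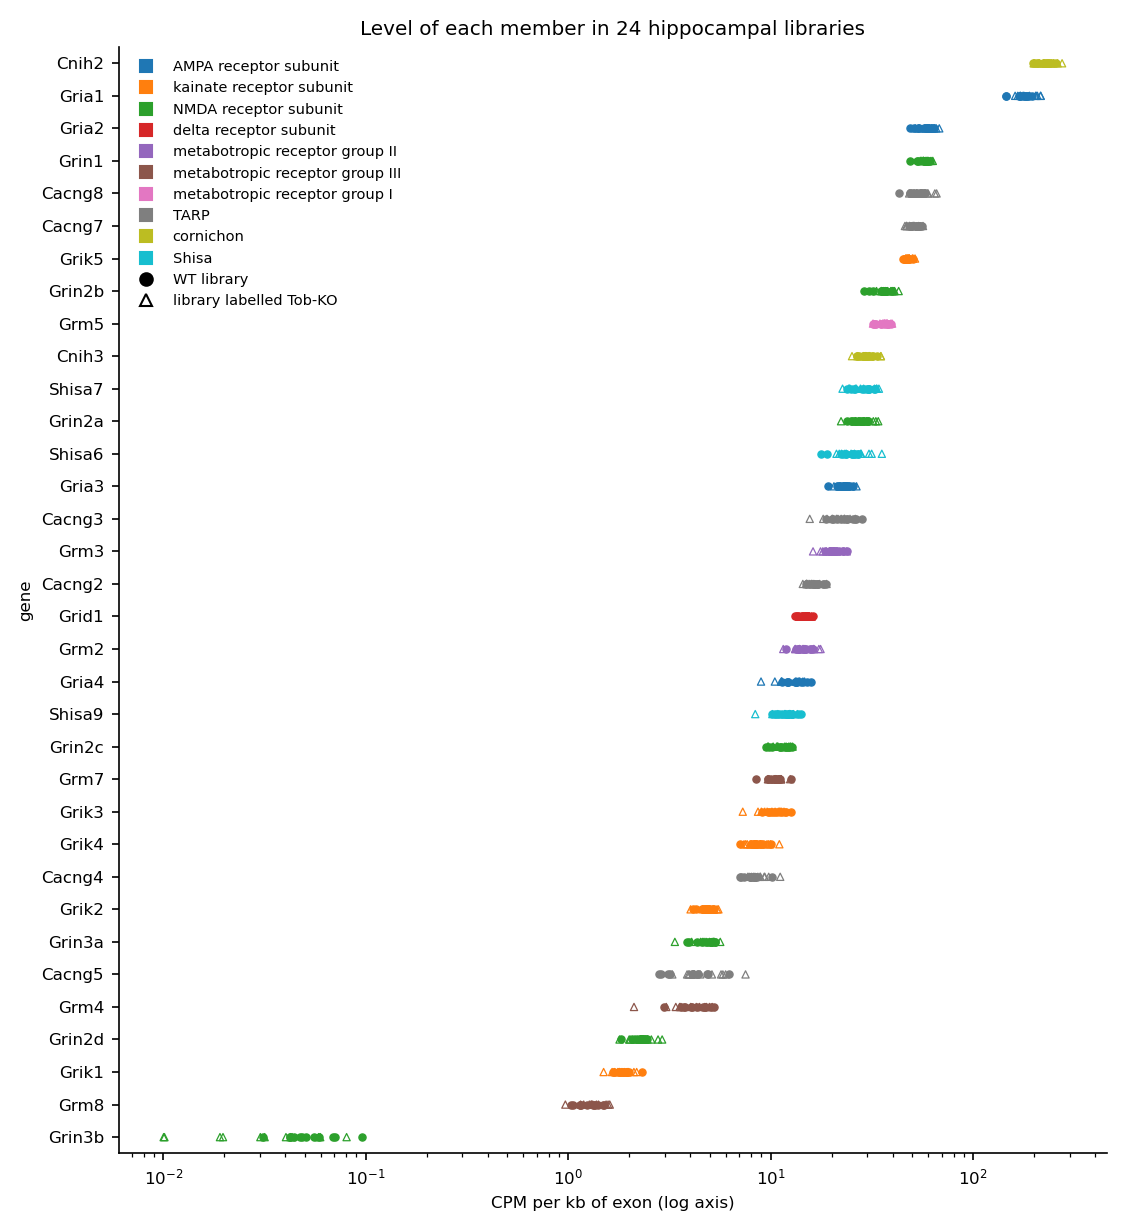
Level of 34 members in CPM per kb of exon on a log axis, ordered by mean, with a filled circle for each WT library and an open triangle for each library labelled Tob-KO, coloured by receptor class. Cnih2 and Gria1 lie above all others, gaps follow Gria1, Grik5, Cacng4 and Grm8, and Grin3b lies far below the rest. Grm6, with 0 counts, cannot be drawn on a log axis.

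Below Grin2b, the ranges of neighbours ran into each other down to Cacng4. Grm5, the group I metabotropic receptor, lay at 36.1 CPM per kb, the second cornichon Cnih3 at 29.7, Shisa7 at 28.4, Grin2a at 28.0, Shisa6 at 25.1, Gria3 at 23.1, the TARP Cacng3 at 22.3 and the group II receptor Grm3 at 20.3 CPM per kb. Cacng2, the TARP known as stargazin, followed at 16.3, the delta receptor Grid1 at 14.8, Grm2, which damps release at terminals, at 14.6, Gria4 at 13.0, Shisa9, a protein that slows recovery of AMPA receptors from desensitisation, at 11.8, Grin2c at 11.3, the presynaptic receptor Grm7 at 10.6, Grik3 at 10.4, Grik4 at 8.63 and Cacng4 at 8.48 CPM per kb. This middle range holds members of every class.

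The lowest levels belonged to the kainate subunit Grik2 (4.86 CPM per kb), the NMDA subunit Grin3a (4.79), the type II TARP Cacng5 (4.46), the group III receptor Grm4 (4.13), Grin2d (2.29), Grik1 (1.87) and the group III receptor Grm8 (1.30). Grin3b had 1 to 10 counts per library, and 32.1% of its exon length overlaps Tmem259, so even these counts are uncertain. Grm6, a receptor of retinal bipolar cells, had 0 counts in all 24 libraries, which allows up to 0.104 CPM at the shallowest depth by counting error alone (3 counts). Besides Grin3b and Grm6, 1 other member had over 10% of its exons shared with another gene: Grin1, 13.5%, with the antisense gene Grin1os. The strand setting of the counting is not given in the sources used here.

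The order depended on the length used, and so did the gap between Gria1 and Gria2. Per kb of coding sequence these stood at 402 and 347 CPM per kb. Their coding lengths are 2721 and 2649 bases, and their CPM ranges, 873 to 1303 and 761 to 1057, overlapped. Per kb of the longest protein-coding transcript, Grin1 took position 3 (131 CPM per kb) and Gria2 position 4 (88.6). Per kb of the longest coding sequence in place of all exons, Cnih2, Gria1 and Gria2 stayed in positions 1, 2 and 3, while Grin2b moved from position 8 to 4, Grik5 from 7 to 15, Cacng8 from 5 to 12 and Grm3 from 16 to 24. Reads in UTRs are counted but their length is left out there, so genes with long UTRs such as Grin2b (24842 bases of exon, 4446 of coding sequence) gain.

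Shares within families also depended on the length. Per kb of exon, Gria1 made up 65.5% ± 2.08 of the AMPA subunit level (SD, n = 24), Gria2 21.4% ± 0.872, Gria3 8.38% ± 0.626 and Gria4 4.76% ± 0.905. Per kb of coding sequence, Gria1 fell to 46.4% and Gria2 rose to 40.1%, and the order of the 4 subunits was the same. Grin2b made up 46.8% ± 1.77 of the level of the Grin2 subunits, which bind glutamate in NMDA receptors, Grin2a 35.8% ± 1.42, Grin2c 14.5% ± 1.49 and Grin2d 2.94% ± 0.440. The order Grin2b, Grin2a, Grin2c, Grin2d held for all 3 lengths, with Grin2b at 60.5% and Grin2c at 4.56% per kb of coding sequence. Among kainate subunits Grik5, which forms channels only together with another kainate subunit, held 65.0% ± 1.12, and among the type I TARPs Cacng8, the TARP most associated with hippocampus, held 53.5% ± 4.21. Per kb of coding sequence Grik5 held 51.3%, and Cacng8 held 34.7% beside 32.1% for Cacng2. Shisa7 (43.4% ± 2.51) and Shisa6 (38.3% ± 3.62) shared most of the Shisa level, in the reverse order per kb of coding sequence (40.2% and 42.2%).

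**Figure D2:**
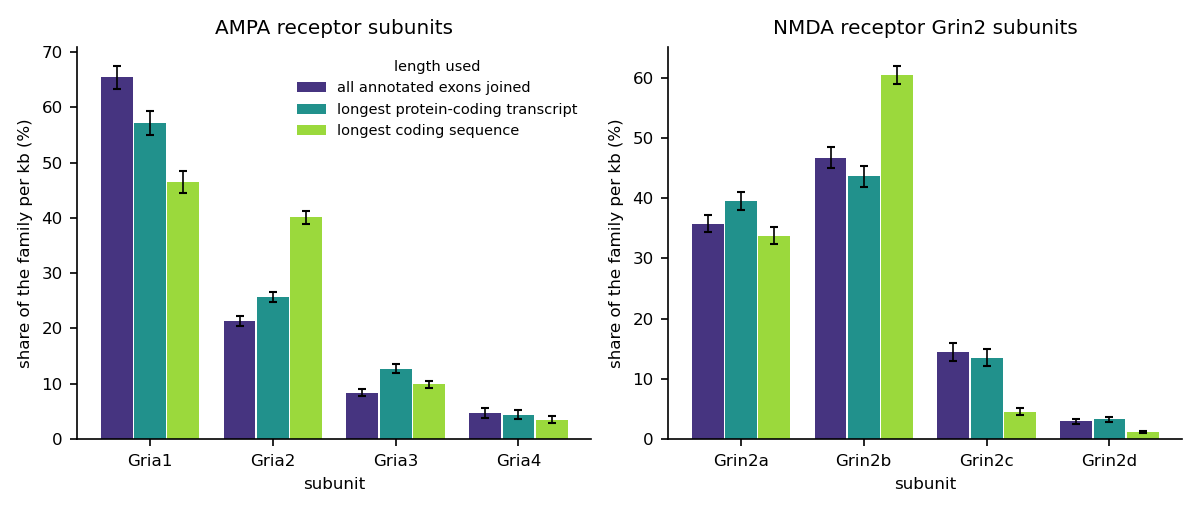
Share of each AMPA subunit (left) and each Grin2 subunit (right) in the summed level of its family, in percent per kb, for 3 choices of gene length. Bars are means over 24 libraries and error bars are SD. Gria1 falls from 65.5% to 46.4% and Gria2 rises from 21.4% to 40.1% between the exon and coding lengths, and the order in each family stays.

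For the AMPA subunits the levels below are CPM, which compare libraries within a gene. Gria1 read 873, 1180.3 and 1029 CPM in naive WT mice, 873, 1017 and 1112 at 15 min, 1142, 1095 and 1112 at 1 h and 1026, 1085 and 1064 at 3 h. Gria1 in the libraries labelled Tob-KO read 1301, 1303 and 1035 CPM in naive mice, 1077, 1230.3 and 1004 at 15 min, 1237, 1065 and 1030.2 at 1 h and 974, 1254 and 1145 at 3 h. Each conditioned group overlapped the naive group of its own label, with group means from 1001 CPM (WT, 15 min) to 1213 CPM (naive, labelled Tob-KO). Gria2 read 796, 993 and 987 CPM in naive WT mice, 827, 761 and 843 at 15 min, 904, 931 and 930.3 at 1 h and 891, 925 and 925 at 3 h. Gria2 in the libraries labelled Tob-KO read 1057, 969 and 943 CPM in naive mice, 907, 997 and 805 at 15 min, 967, 894 and 955 at 1 h and 840.2, 1022 and 978 at 3 h. Gria2 was likewise lowest on average in WT at 15 min and highest in naive libraries labelled Tob-KO, and each conditioned group overlapped the naive group of its own label. Gria3 read 213, 236 and 250.03 CPM in naive WT mice, 228, 190.2 and 216 at 15 min, 209, 228 and 226 at 1 h and 221, 233 and 238 at 3 h. Gria3 in the libraries labelled Tob-KO read 246, 215 and 229.6 CPM in naive mice, 226, 243 and 202 at 15 min, 229, 218 and 234 at 1 h and 232, 262 and 236 at 3 h. Gria3 group means stayed between 212 and 243 CPM. The fourth AMPA subunit, Gria4, ranged from 56.5 to 99.97 CPM over the 24 libraries.

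Among NMDA subunits, Grin1 varied least. Grin1 read 518, 578 and 595 CPM in naive WT mice, 563, 472 and 563 at 15 min, 510.3, 573 and 571 at 1 h and 557, 571 and 563 at 3 h. Grin1 in the libraries labelled Tob-KO read 613, 551 and 600.2 CPM in naive mice, 562, 551 and 537 at 15 min, 531, 550.1 and 542 at 1 h and 572, 582 and 576 at 3 h. Its 3 h libraries labelled Tob-KO all lay above the 3 h WT libraries, by a narrow margin. Here and below, groups that do not overlap are only described, as the share of all genes that separate so is not given. Grin2a read 427, 543 and 514 CPM in naive WT mice, 452, 445 and 519 at 15 min, 494, 460.2 and 505 at 1 h and 475, 537 and 541 at 3 h. Grin2a in the libraries labelled Tob-KO read 576, 593 and 519.9 CPM in naive mice, 486, 495 and 399 at 15 min, 532, 469 and 489.9 at 1 h and 470.5, 609 and 517 at 3 h. The 15 min libraries labelled Tob-KO all lay below the naive ones of the same label. Grin2b read 761, 896 and 989 CPM in naive WT mice, 796, 721 and 879.7 at 15 min, 921, 888 and 918 at 1 h and 909, 925 and 874 at 3 h. Grin2b in the libraries labelled Tob-KO read 1007, 986 and 993 CPM in naive mice, 917, 973 and 828 at 15 min, 1017, 876 and 898 at 1 h and 875, 1065 and 936 at 3 h. For Grin2b, too, the 15 min libraries labelled Tob-KO lay below the naive ones, without overlap. Grin2c stood at 47.8 to 64.6 CPM over the 24 libraries, Grin2d at 11.9 to 19.4 and Grin3a at 41.3 to 69.2 CPM.

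Grik5 was the steadiest of the 33 members over 1 CPM, with a coefficient of variation over the 24 libraries of 3.47%, against a median of 9.67% and a highest value of 25.8% for Cacng5. Grik5 read 244, 238 and 248 CPM in naive WT mice, 261, 253 and 246 at 15 min, 236, 244 and 246 at 1 h and 232, 239 and 239 at 3 h. Grik5 in the libraries labelled Tob-KO read 249.73, 250.09 and 241 CPM in naive mice, 240.4, 246 and 245 at 15 min, 249.78, 247 and 243 at 1 h and 267, 259 and 261 at 3 h. At 15 min the libraries labelled Tob-KO lay just below WT, the highest at 246.09 CPM against a lowest WT value of 246.31 CPM. At 3 h they lay above WT without overlap. The other kainate subunits ranged from 53.3 to 73.1 CPM (Grik2), 65.3 to 113 (Grik3), 41.99 to 65.8 (Grik4) and 10.1 to 15.5 CPM (Grik1). Grid1 read 86.7, 89.6 and 91.4 CPM in naive WT mice, 80.7, 80.2 and 87.9 at 15 min, 79, 88.6 and 84.2 at 1 h and 96.2, 90.9 and 85.6 at 3 h. Grid1 in the libraries labelled Tob-KO read 92.5, 82.4 and 89.7 CPM in naive mice, 91.2, 86.3 and 91.2 at 15 min, 88.9, 85.4 and 82.2 at 1 h and 92.4, 95.1 and 94.4 at 3 h. Grid1, a relative of the ionotropic receptors that organises synapses, overlapped between each conditioned group and the naive group of its own label, and between the labels at each time.

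Of the group I and III metabotropic receptors, Grm5 and Grm7 had the highest levels per kb. Grm5 read 328, 378 and 389.7 CPM in naive WT mice, 334, 330.1 and 359 at 15 min, 358, 389 and 401 at 1 h and 389.5, 373 and 339 at 3 h. Grm5 in the libraries labelled Tob-KO read 385, 355 and 372 CPM in naive mice, 379, 386 and 374 at 15 min, 408, 366 and 373 at 1 h and 328, 402 and 383 at 3 h. Only the 15 min libraries separated by label for Grm5, those labelled Tob-KO being higher. Grm7 read 57.3, 61.7 and 73.9 CPM in naive WT mice, 59.2, 49.6 and 64.5 at 15 min, 57.3, 62.2 and 62.1 at 1 h and 65, 65.3 and 63.9 at 3 h. Grm7 in the libraries labelled Tob-KO read 66.2, 61.1 and 73.5 CPM in naive mice, 62.6, 57.5 and 57.1 at 15 min, 62.4, 62.4 and 61.8 at 1 h and 66.1, 64.8 and 66.1 at 3 h. Grm7 had its lowest group mean, 57.8 CPM, in WT at 15 min. Grm2 ranged from 56.4 to 86.3 CPM, Grm4 from 12.6 to 31.5 and Grm8 from 9.58 to 15.9 CPM.

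The AMPA auxiliary subunits with the highest levels of their kind varied between mice of a single group. Cacng8 read 101, 135 and 118 CPM in naive WT mice, 114, 114 and 128 at 15 min, 134, 130.0 and 135 at 1 h and 123, 130.0 and 122 at 3 h. Cacng8 in the libraries labelled Tob-KO read 152, 155 and 119.6 CPM in naive mice, 130.5, 129 and 117 at 15 min, 141, 119.9 and 113 at 1 h and 123, 139 and 132 at 3 h. In the naive groups the spread between replicates was 16.8 and 19.5 CPM (SD, n = 3), larger than in any later group. Cnih2 read 270.3, 350.4 and 276 CPM in naive WT mice, 285, 339.6 and 328 at 15 min, 324, 314 and 321 at 1 h and 285, 311 and 303 at 3 h. Cnih2 in the libraries labelled Tob-KO read 341, 376 and 275 CPM in naive mice, 306, 317 and 305 at 15 min, 334, 307 and 272 at 1 h and 290.3, 358 and 322 at 3 h. Cnih2 showed the same wide naive groups, with SDs of 44.8 and 51.6 CPM. Among the remaining auxiliary genes, the lowest and highest libraries were 112 and 138 CPM for Cacng7, 79.4 and 104 for Cacng2, 43.3 and 78.1 for Cacng3, 25.3 and 39.8 for Cacng4, 10.7 and 28.8 for Cacng5, 69.4 and 96.4 for Cnih3, 131 and 264 for Shisa6 and 44.0 and 74.4 CPM for Shisa9.

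Shisa7 was lower after conditioning. It encodes a membrane protein reported to bind AMPA and GABA-A receptors and is annotated on the minus strand of chromosome 7 (GRCm38, 4825552 to 4844696, ENSMUSG00000053550.13). Shisa7 read 187, 200.3 and 216 CPM in naive WT mice, 173, 192 and 203 at 15 min, 157, 165 and 170.5 at 1 h and 198, 214 and 203 at 3 h. Shisa7 in the libraries labelled Tob-KO read 227, 222 and 216 CPM in naive mice, 163, 174 and 150.3 at 15 min, 176, 161 and 164 at 1 h and 184, 221 and 191 at 3 h. At 1 h all 6 libraries, 157 to 176 CPM, lay below all 6 naive libraries, 187 to 227 CPM, and at 3 h the ranges overlapped again. At 15 min the libraries labelled Tob-KO lay below their naive group without overlap, and the WT libraries overlapped theirs.

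Over both genotypes Shisa7 fell by 0.27 on the log2 scale at 15 min (SE 0.06, 95% interval -0.39 to -0.14, adjusted p = 0.0117) and by 0.35 at 1 h (SE 0.06, interval -0.48 to -0.23, adjusted p = 0.00137), in a quasi-likelihood fit of all 24 libraries (edgeR), p-values being adjusted after Benjamini-Hochberg over 19500 genes. At 3 h its difference was -0.07 (interval -0.19 to 0.06, adjusted p = 0.750). Within the libraries labelled Tob-KO it fell by 0.45 at 15 min (adjusted p = 0.00329) and 0.41 at 1 h (adjusted p = 0.0125). Within WT the values were -0.09 (adjusted p = 0.752) and -0.29 (adjusted p = 0.102), and DESeq2 called the 1 h difference in WT (adjusted p = 0.0179). Whether the genotypes differ in this course was tested by the interaction term of edgeR, which was not called for Shisa7 (adjusted p = 0.953). In bulk tissue, fewer cells of a type and less RNA per cell cannot be told apart.

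Grm3 was higher at 15 min. This group II metabotropic receptor, found on neurons and strongly on astrocytes, lies on the minus strand of chromosome 5 (GRCm38, 9485541 to 9725170, ENSMUSG00000003974.6). Grm3 read 59.8, 56.4 and 63.6 CPM in naive WT mice, 72.4, 63.9 and 69.5 at 15 min, 66, 69.1 and 61.6 at 1 h and 59.9, 59.7 and 61.8 at 3 h. Grm3 in the libraries labelled Tob-KO read 53.7, 49.4 and 59.6 CPM in naive mice, 65.3, 61.3 and 72.4 at 15 min, 59.8, 57.4 and 62.1 at 1 h and 64.6, 55.1 and 62.8 at 3 h. Within each label the 15 min libraries lay above the naive ones without overlap, whereas over both labels the highest naive library (63.6 CPM) exceeded the lowest at 15 min (61.3 CPM). The log2 difference over both genotypes was 0.24 (SE 0.05, interval 0.13 to 0.35, adjusted p = 0.00999). It was 0.13 at 1 h (adjusted p = 0.140) and 0.09 at 3 h (adjusted p = 0.618). Within the libraries labelled Tob-KO the 15 min difference was 0.29 (adjusted p = 0.0411), and within WT 0.19 (adjusted p = 0.510). The call with the Tob-KO label was lost in 12 of 34 alternative settings (adjusted p up to 0.291), 7 of which left out a single library.

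**Figure D3:**
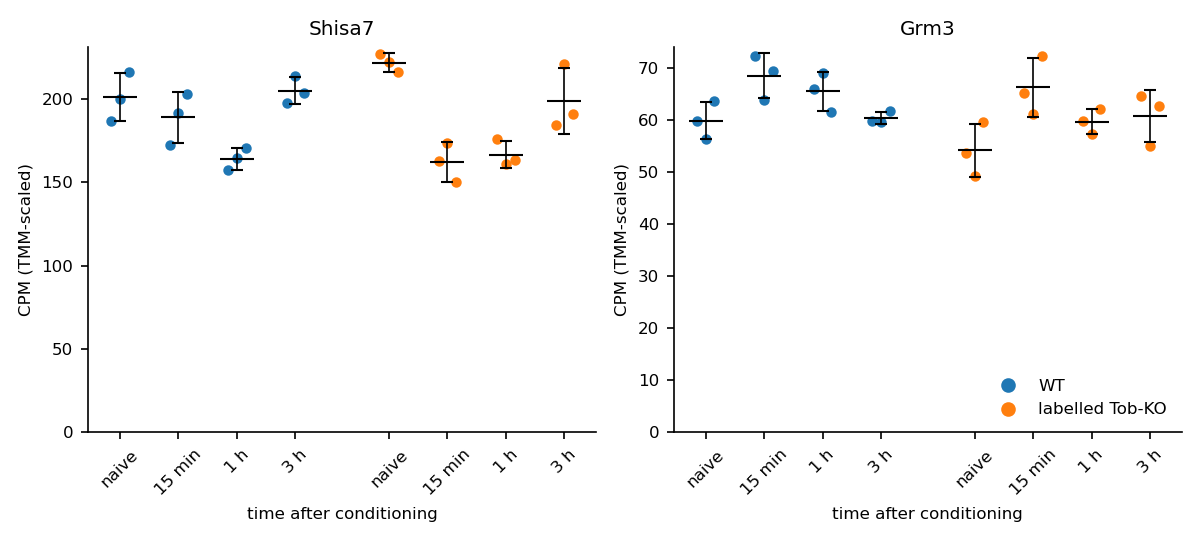
Shisa7 (left) and Grm3 (right) in CPM by group, with a point for each library, a horizontal bar for the mean and error bars for SD (n = 3), axes from 0. Shisa7 lies at 157 to 176 CPM in all 1 h libraries and at 187 to 227 CPM in all naive ones, and Grm3 at 15 min lies above the naive group of its own label.

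Other cells' markers moved with the same time point. At 15 min 3 of 4 endothelial genes were called higher, their summed level being 88.3 to 120 CPM in naive libraries and 127 to 199 CPM at 15 min, and 2 of 5 astrocyte genes (Aqp4 and Gja1) were called higher, with sums of 715 to 902 and 788 to 981 CPM. None of these genes was at 0 in any library. Of the CA3 genes, 1 of 4, Cdh24, was called lower at 15 min, and the CA3 sums were 75.3 to 121 CPM in naive libraries and 80.1 to 89.8 CPM at 15 min. With the endothelial score as a covariate the 15 min values over both genotypes were 0.21 for Grm3 (adjusted p = 0.449) and -0.30 for Shisa7 (adjusted p = 0.304). With the astrocyte score they were 0.29 (adjusted p = 0.0790) and -0.27 (adjusted p = 0.161). Both calls ended, as did most calls over all genes at 15 min. The mean endothelial score was itself -0.0742 in naive libraries and 0.402 at 15 min, so such a fit cannot separate the score from the time point. The part of those cells in the results was not tested further. The Shisa7 call at 1 h over both genotypes was kept under every alternative run, with adjusted p up to 0.00606, and that at 1 h with the Tob-KO label was lost in 2 of 34 settings (adjusted p up to 0.0977), those without naive replicate 1 or 1 h replicate 2 of that label. Without the 15 min library labelled Tob-KO, replicate 3, the 15 min difference of Shisa7 was -0.22 (adjusted p = 0.0501).

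Across all members, 34 passed the low-count limit over 24 libraries, all but Grm6. At 15 min over both genotypes 1 of the 34 was called higher (Grm3) and 1 lower (Shisa7), where 4.7% of all 19500 genes tested were called, and the members' median log2 difference was -0.04 against 0.00 for all genes. At 1 h 1 of 34 was called, against 6.15% of all genes, and medians were -0.02 and 0.00. At 3 h no member and no other gene was called by edgeR (0% of 19500), with 0 members and 1765 genes at an unadjusted p under 0.05, and DESeq2 called 0 members and 12 genes. Shisa7 and Grm3 were also the 2 members called for any difference among the 4 time points (adjusted p = 0.00118 and 0.0230), where 8.28% of all genes were called. These shares are near the background or below it.

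**Figure D4:**
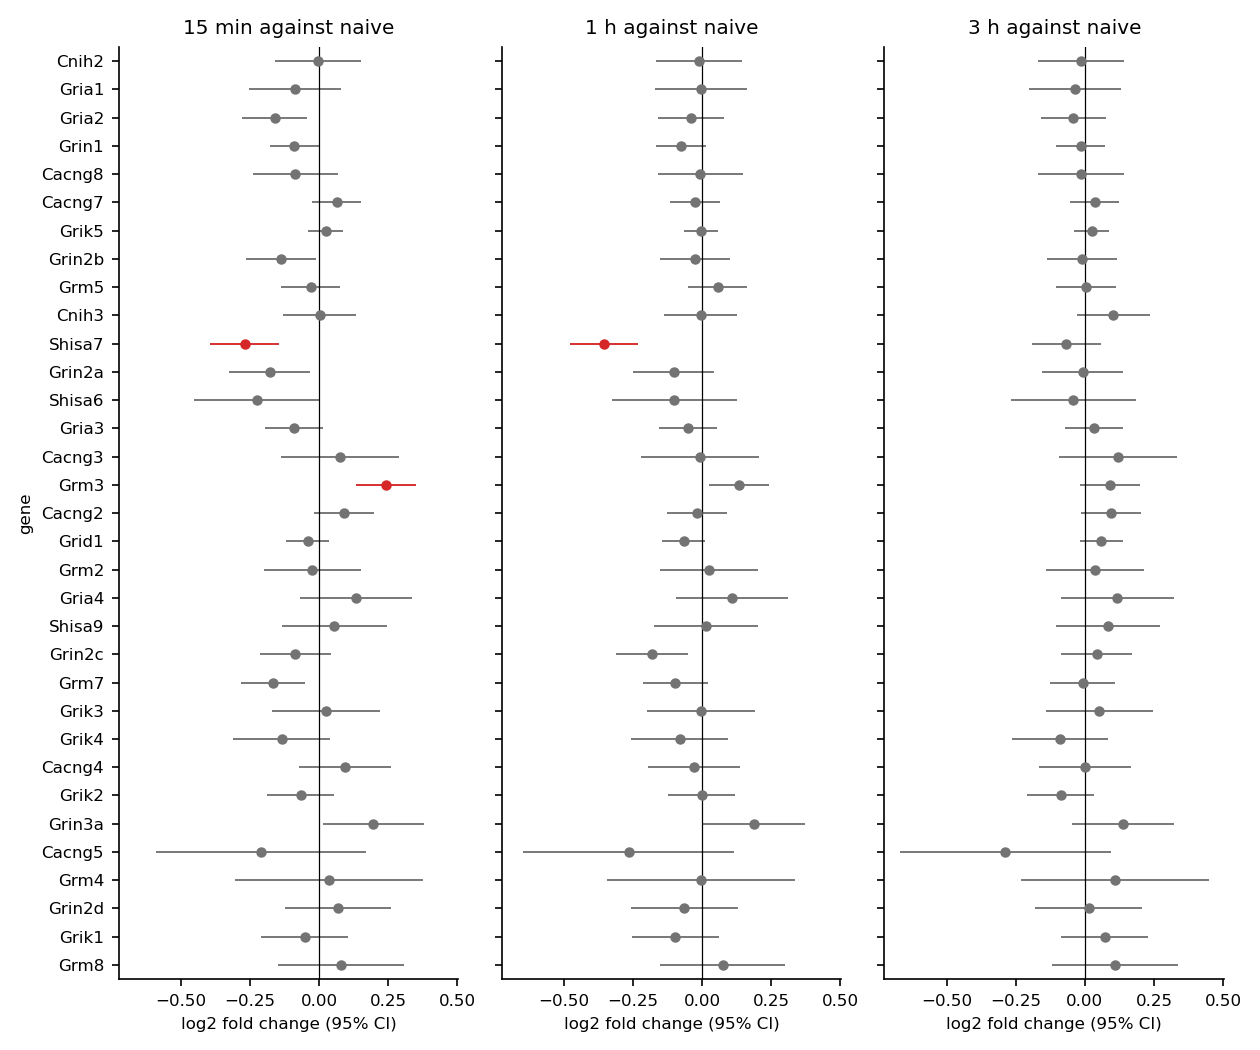
Log2 fold change of each of the 3 times after conditioning against naive over both genotypes for 33 members (Grin3b, whose intervals are wide, and Grm6, not tested, are left out). Points are estimates from the fit over 24 libraries, lines are 95% intervals, and red marks the calls, Grm3 and Shisa7 at 15 min and Shisa7 at 1 h.

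Several members had intervals that excluded 0 without passing the adjustment over all genes. The share of all genes with such intervals is not given here, so they are listed as values only. At 15 min these were Gria2 (-0.16, adjusted p = 0.107), Grin2a (-0.18, adjusted p = 0.148), Grin2b (-0.14, adjusted p = 0.199), Grin1 (-0.09, adjusted p = 0.245), Grm7 (-0.17, adjusted p = 0.0886) and Grin3a (0.19, adjusted p = 0.215). The first naive WT library held the lowest naive value of Gria1, Gria2, Grin1, Grin2a and Grin2b. Without it 6 members passed at 15 min: Gria2, Grin2a, Grin2b, Grm3, Grm7 and Shisa7. The share of all genes that passed in that run is not given here, so the gain cannot be called particular to the members. At 1 h Grin2c was among such members, with a log2 difference of -0.18 (adjusted p = 0.0886), and without either naive WT replicate 3 or 1 h WT replicate 2 it passed beside Shisa7.

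Within WT no member was called by edgeR at any time, with 3, 1 and 0 members from the earliest time to the latest at an unadjusted p under 0.05 and 0, 1 and 0 called by DESeq2. The calls over all genes were also few in WT, 0.0462%, 0.185% and 0% in that order. Here and below, counts at an unadjusted p stand without the share over all genes and are no result about the members. In the libraries labelled Tob-KO, 2 members were called at 15 min (2.51% of all genes), 1 at 1 h (1.13%) and 0 at 3 h (0%), with 6 members at an unadjusted p under 0.05 at 3 h and 0 called by DESeq2. Members at 3 h with that label included Cnih3 (0.23, adjusted p = 0.413) and Cacng2 (0.17, adjusted p = 0.427). The interaction of genotype and time called 0 members and 0% of genes, by edgeR and by DESeq2, with Grik5, Cnih3 and Shisa7 at an unadjusted p under 0.05.

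For the genotype, no member was called between the libraries labelled Tob-KO and WT. Over all time points edgeR's quasi-likelihood test called 0 of 34 members, DESeq2 0, and 0.462% of all genes. The 5 members at an unadjusted p under 0.05 were Grin2b (0.12, 95% interval 0.03 to 0.21, adjusted p = 0.225), Cacng4 (0.12, adjusted p = 0.352), Cacng2 (-0.09, adjusted p = 0.279), Grm3 (-0.08, adjusted p = 0.362) and Cacng7 (-0.06, adjusted p = 0.365). The share of all genes under that limit is not given here, so these stand as values only. Gria1 was at 0.12, Gria2 at 0.08 and Grin1 at 0.03 with an interval of -0.03 to 0.09. Cacng5 had the widest interval among members over 1 CPM, -0.02 to 0.52 around 0.25.

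**Figure D5:**
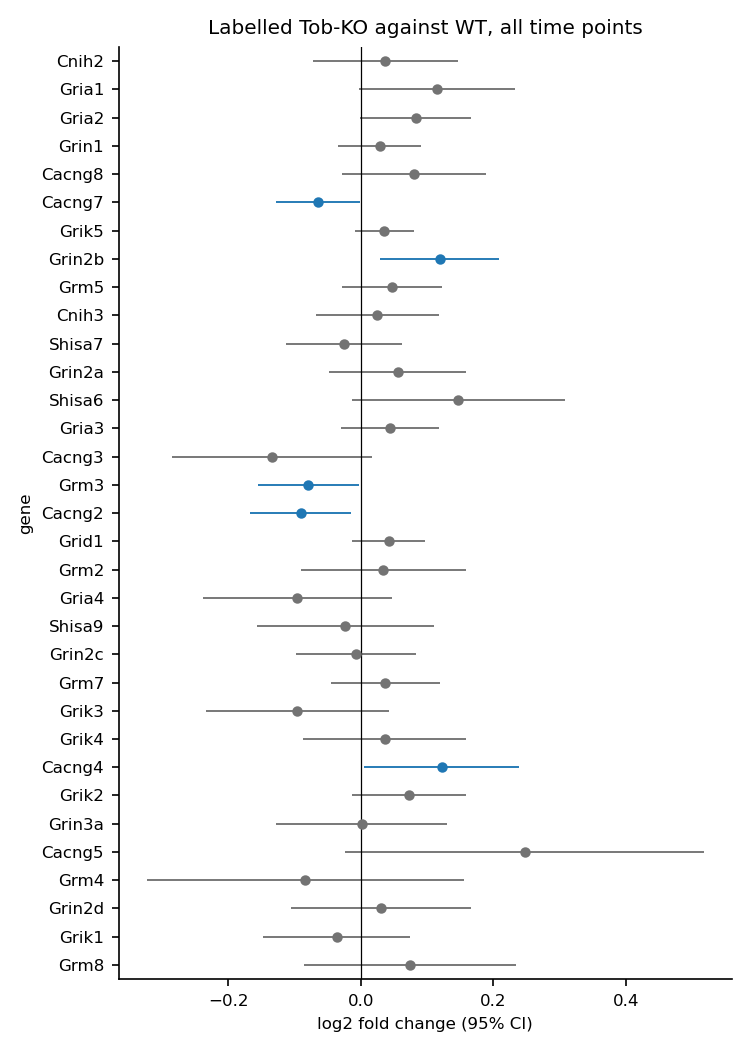
Log2 fold change of the libraries labelled Tob-KO against WT over all time points for 33 members (Grin3b and Grm6 left out), with 95% intervals from the fit over 24 libraries. Blue marks the 5 members with an unadjusted p under 0.05, none of which was called after adjustment, and no estimate passes 0.25. The share of all genes under that limit is not given here.

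At single time points the exact test of edgeR, with the fold-change limit of 2 that the study's methods use, called no member. It called 0.0218% of all genes in naive mice, 0.555% at 15 min, 0.033% at 1 h and 0.0274% at 3 h. With no fold-change limit it also called no member, and 0.0381%, 0.746%, 0.121% and 0.0657% of all genes. At an unadjusted p under 0.05 there were 4, 3, 2 and 3 members, counts given without the share over all genes. DESeq2 and the quasi-likelihood test called 0 at each time. The lowest adjusted p of the exact test, 0.141, belonged to Cacng5 at 15 min. Its log2 difference there was 0.73, with an SE of 0.23 taken from the quasi-likelihood fit of the same 6 libraries. Cacng5 levels at 15 min were 10.7 to 15.8 CPM in WT and 15.0 to 28.8 CPM in libraries labelled Tob-KO. The highest value came from replicate 3. Its scores over 5 thalamus and 10 striatum marker genes were 0.419 and 0.426. In WT at 15 min these scores were -0.134 to 0.144 and -0.456 to -0.0716. The part of such tissue in the Cacng5 difference was not tested. Shisa6 in naive mice read 141 to 202 CPM in WT and 186 to 264 CPM under the Tob-KO label (log2 difference 0.42, adjusted p = 1). The naive Shisa7 values, 216 to 227 CPM under the Tob-KO label and 187 to 216 CPM in WT, touched at their edges.

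Count ratios of paired subunits, which compare libraries and need no length, gave no difference between the labels past the threshold. Gria1 to Gria2 was 1.04 to 1.34 in WT (median 1.17, n = 12) and 1.08 to 1.34 in libraries labelled Tob-KO (median 1.21), a log2 difference of 0.03 (permutation test within time points, two-sided, p = 0.469, adjusted over 3 ratios 0.469). Gria3 to Gria2 was 0.231 to 0.276 and 0.222 to 0.276 (log2 difference -0.04, permutation p = 0.181, adjusted 0.272). Grin2a to Grin2b, a ratio that rises as NMDA receptors mature, was 0.518 to 0.619 and 0.482 to 0.601 (log2 difference -0.07, permutation p = 0.0903, adjusted 0.271). At 15 min the Grin2a to Grin2b ratio was 0.568 to 0.618 in WT and 0.482 to 0.530 under the Tob-KO label, without overlap, which gives the smallest p an exact permutation of 3 against 3 allows, 0.1, and 0.6 after adjustment over the 12 tests within time points.

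Partners of these receptors at the synapse were called at about the share of all genes. Of 47 genes for scaffolds, receptor trafficking, postsynaptic signalling and glutamate handling, 1 was called higher and 2 lower at 15 min over both genotypes, against a background of 4.7%. At 1 h the test found 2 of them higher and 2 lower, against 6.15%, and at 3 h it found 0 (4 at an unadjusted p under 0.05, 0 by DESeq2). Arc, an activity-induced gene whose protein promotes AMPA receptor endocytosis, was at 80.3 to 133 CPM in naive libraries, 150 to 377 CPM at 15 min and 170 to 243 CPM at 1 h, log2 differences of 1.19 (adjusted p = 0.00164) and 1.06 (adjusted p = 0.00242).

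Homer1, a scaffold that links group I metabotropic receptors, rose by 0.28 at 1 h (adjusted p = 0.0455), from 145 to 184 CPM in naive libraries to 172 to 211 CPM, with overlap. Prrt1, an AMPA receptor associated protein, fell by 0.22 at 1 h (adjusted p = 0.0460), and Cpt1c, which takes part in AMPA receptor assembly, by 0.15 at 15 min (adjusted p = 0.0380). Nptx2, a secreted pentraxin that clusters AMPA receptors, was called for any difference among the time points (adjusted p = 0.0159), with medians of 33.2, 28.5, 28.8 and 37.3 CPM from naive to 3 h. In the libraries labelled Tob-KO, Arc rose by 1.31 at 15 min and at 1 h (adjusted p = 0.0158 and 0.0253). In WT its differences were 1.08 (adjusted p = 0.208) and 0.78 (adjusted p = 0.240), no partner gene was called in WT by edgeR or DESeq2 (3, 2 and 1 at an unadjusted p under 0.05 from the earliest time to the latest), and the interaction was not called for Arc (adjusted p = 0.953). In naive mice Arc was the 1 partner gene called between the labels by the exact test with no fold-change limit, at -0.54 (adjusted p = 2.1e-05). Immediate early genes, as a list, were called higher for 10 of 10 at 15 min, 8 of 10 at 1 h and 0 of 10 at 3 h.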

How the data were processed

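Total RNA of mouse hippocampus was poly(A)-selected, made into directional libraries with 8 PCR cycles and sequenced as 150-bp paired reads. Per the labels and the study's methods, the authors aligned reads to GRCm38 with STAR 2.6.1d and deposited unnormalised HTSeq 0.9.0 counts per gene. The annotation release, strand setting and handling of marked duplicates are not given in the sources used here, and PCR duplicates cannot be removed from counts. Intervals cover the spread between libraries and, for a count of 0, counting error only.

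Counts were scaled by TMM. Genes at 0.2 CPM or more in 2 libraries were tested with edgeR 4.0.16 (R 4.3.3): the exact test on 6 libraries for genotype at each time (FDR 0.05, fold change of 2), and quasi-likelihood fits of 24 libraries elsewhere (FDR 0.05). DESeq2 1.42.0 was an alternative. The scripts were tested on simulated data. At FDR 0.05 alone, the exact test between labels at 15 min called 52 unchanged genes. The quasi-likelihood fits called 5 (15 min over both genotypes), 9 (genotype) and 1 (15 min with the Tob-KO label). A log2 change of 0.3 was recovered for 59.7%, 85.1% and 34.3% of 67 changed genes in those fits, and for 46.3% by the exact test. Subunit ratios used 100000 permutations of genotype within time points (NumPy, SciPy). Exon, transcript and coding lengths came from GENCODE vM21.

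No replicate pair within a group had counts that agreed within sampling noise (chi-square per degree of freedom 3.68 to 22.8 over 24 pairs). The members and gene lists were chosen with earlier results of these data known. Every member is named with its level, with values per library for members called in any comparison, the most abundant of each class and those in ratios, and the partner genes named are those called (up to 5 per comparison), apart from 1 gene that is not reported here. Promoter sequences are RefSeq's. 0 sample columns of the table were left unused.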

Additional observations from a re-analysis of the deposited data

How the results depend on the processing

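Counts of called members were recomputed with other size factors, no low-count filter, DESeq2, marker scores as covariates, fits on 6 libraries and each library left out. The endothelial and astrocyte scores were added after seeing the data. No result reversed. By DESeq2 1 member was called at 1 h in WT (Shisa7) and 2 at 1 h in the libraries labelled Tob-KO (Grin2c and Shisa7), and by the exact test on 6 libraries 1 at 1 h in WT, 1 at 15 min and 2 at 1 h with the Tob-KO label. The quasi-likelihood test on 6 libraries called 0 at 15 min with that label. The striatum score gave 1 at 1 h in WT and 1 at 15 min with the Tob-KO label. The endothelial and the astrocyte score each gave 0 at 15 min over both genotypes, 1 for any time point and 1 at 15 min with the Tob-KO label. Over all genes, DESeq2 raised the calls from 917 to 1394 at 15 min, from 1614 to 2529 for any time point and from 90 to 293 for genotype, and the endothelial and astrocyte scores left 9 and 46 at 15 min. The cause of these moves was not tested.

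With each library left out in turn, called members numbered 1 to 6 at 15 min over both genotypes, 1 to 2 at 1 h, 1 to 3 for any time point, 1 to 2 at 15 min and 0 to 1 at 1 h with the Tob-KO label, and 0 to 0 elsewhere. The 6 came without naive WT replicate 1, and the share of all genes called in that run is not given here. Without 15 min replicate 3 labelled Tob-KO only Grm3 remained called at 15 min over both genotypes and only Shisa7 for any time point. At 1 h over both genotypes the 2 came without naive WT replicate 3 or 1 h WT replicate 2. With the Tob-KO label, Grm3 at 15 min was lost without any of 7 libraries (naive replicates 1 and 2, 15 min replicates 1 and 3, 1 h replicate 1, and WT 3 h replicates 1 and 2), and Shisa7 at 1 h without naive replicate 1 or 1 h replicate 2. The log2 ratio differences ranged from 0.00396 to 0.0505 (Gria1 to Gria2), -0.0507 to -0.0259 (Gria3 to Gria2) and -0.0818 to -0.0514 (Grin2a to Grin2b).

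Shares of a family moved with the length used. Per kb of the longest coding transcript they were 57.1% (Gria1), 25.7% (Gria2), 12.7% (Gria3), 39.6% (Grin2a) and 43.6% (Grin2b), and per kb of coding sequence 46.4% (Gria1), 40.1% (Gria2), 9.90% (Gria3), 3.54% (Gria4), 33.8% (Grin2a), 60.5% (Grin2b), 4.56% (Grin2c) and 1.14% (Grin2d).

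Replicate numbers are shared between groups. Mean correlations of the deviations of same-numbered libraries ran from -0.202 to 0.245, and 0 of the 10 group pairs checked had every correlation above 0.1. The highest mean was between the naive and 15 min groups labelled Tob-KO, with 0.319, 0.36 and 0.056. With 3 replicates per group such values cannot settle whether libraries were paired. With the replicate block the called members were 2 at 15 min, 1 at 1 h and 0 at 3 h over both genotypes, 2 and 1 at 15 min and 1 h with the Tob-KO label and 0 for genotype. All genes called at 1 h with the Tob-KO label went from 220 to 112 under the block.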
